A study of Mus musculus with 2 samples.

Results

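The genes Otx1, Otx2, Oc90, Vmo1 and Lrp2 were followed across the cell types of the embryonic mouse cochlea, in wild-type embryos and in embryos in which Hedgehog signalling had been altered. They are 5 of the 32285 gene rows counted in each library, were taken by gene symbol, and each symbol matched 1 row in both libraries. At embryonic stage E16.5, 1 single-cell library from wild-type embryos was compared with 1 from Emx2Cre;Ptch1f/f embryos, each made from 8 pooled cochleae of mixed 129/SvEv and C57BL/6N background. Ptch1 encodes the receptor that keeps the Hedgehog pathway off in the absence of ligand. In the mutant, Cre recombinase made from Emx2 is meant to remove the floxed gene, so that only cells with a history of Emx2 expression are targeted. The labels name no Cre or floxed allele in the wild-type embryos. The series asks how Ptch1 and Hedgehog signalling act on strial marginal cells, the epithelial cells that secrete the fluid of the cochlear duct.

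Since each genotype is a single pooled library, no value has a spread between embryos, no difference has a replicate check and no test was run. Intervals cover the counting of unique molecular identifiers (UMIs, the tags that mark single captured RNA molecules) and nothing else, at 95% confidence. The wild-type library held 6500 barcodes with a median of 7333 UMIs, and the mutant library 12326 barcodes with a median of 6524.5 UMIs. After filtering, 6108 and 8670 barcodes were kept, and 17 barcode sequences occurred among the kept barcodes of both libraries. Epithelium comprised 1476 wild-type barcodes, with a median of 8432 UMIs, and 2026 mutant barcodes, with a median of 3908. RNA of other lineages was more common in the wild-type epithelium. There, 58.5% of barcodes were mixed, meaning that they held more than 5 UMIs per 10000 from 32 genes of 6 other lineages, against 12.1% in the mutant, and haemoglobin made up 0.657% and 0.0247% of UMIs. The part of these differences in the results was not tested, and the main values are therefore also given without mixed barcodes. In summed libraries, a change in the number of cells of a type and a change in RNA per cell cannot be told apart.

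OTX1 and OTX2 are homeodomain transcription factors of the orthodenticle family, which pattern the head and parts of the inner ear. In the cochlear duct, OTX2 is known from the roof, the non-sensory epithelium opposite the sensory floor that becomes Reissner's membrane. OC90 (otoconin-90) is a secreted protein best known as the main matrix protein of otoconia, VMO1 is a secreted protein related to a vitelline membrane protein of eggs, and LRP2 (megalin) is a large endocytic receptor on the apical surface of absorptive epithelia. LRP2 takes up many ligands, is known in strial marginal cells, and acts as an accessory receptor for Sonic hedgehog in the developing forebrain.

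Homeodomains of the OTX type bind the letters TAATCC, so these letters were looked for on both strands in RefSeq promoter windows (build GRCm38.p6) that run from 250 bases before a transcription start to 50 after it. Windows were found for 3 of the 5 genes, 4 for Otx2 and 1 each for Vmo1 and Lrp2. The letters occurred once in the Vmo1 window and once in 1 of the Otx2 windows. They occurred in none of the other 3 Otx2 windows and not in the Lrp2 window. Of all 32851 windows, 7.06% held them. The stretches shown are those that hold a match, and their relation to the difference between genotypes was not tested. They are written 5′ to 3′ on the minus strand, with the match in capitals, and the Otx2 stretch holds it as the reverse complement, GGATTA. For Vmo1 the 250 bases before the start are printed (chr11:70514617-70514866), and the match begins 116 bases before the start. For Otx2 a stretch of 30 bases is printed (chr14:48665303-48665332), which lies within an Otx2 exon of GENCODE vM21, and the match begins 211 bases before the start of that window's transcript. A match of letters is a description and does not show binding.
Vmo1: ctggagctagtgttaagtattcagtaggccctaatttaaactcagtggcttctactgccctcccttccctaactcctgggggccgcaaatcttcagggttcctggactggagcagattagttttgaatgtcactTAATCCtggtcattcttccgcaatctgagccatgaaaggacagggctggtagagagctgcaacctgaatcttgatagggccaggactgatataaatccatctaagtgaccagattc
Otx2: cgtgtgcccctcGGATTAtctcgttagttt

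In the mm10 annotation Otx1 lies on chromosome 11 from 21994764 to 22002897, Otx2 on chromosome 14 from 48657677 to 48673819, and Oc90 on chromosome 15 from 65876053 to 65912397. Vmo1 lies on chromosome 11 from 70513516 to 70514616 and Lrp2 on chromosome 2 from 69424340 to 69586065. All of them are protein-coding genes on the minus strand. Otx2 overlaps the genes Otx2os1 and Gm49154, and the sources used here do not say whether reads were counted by strand. Otx2os1, the antisense partner of Otx2, had 4 UMIs in wild-type and 121 in mutant epithelium, and without strand its reads and those of Otx2 cannot be told apart.

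The 5 genes were counted mainly in epithelium. Of the kept UMIs of each gene in the wild type, the epithelium held 92.0% for Otx1, 93.8% for Otx2, 95.1% for Oc90, 65.6% for Vmo1 and 96.5% for Lrp2. In mesenchyme, the largest other class with 3062 wild-type and 4643 mutant barcodes, Otx1, Otx2, Vmo1 and Lrp2 were all below 1 CPM (UMIs of a gene scaled per total UMIs of the group, the usual counts-per-1e6 unit) in both libraries. With 1 CPM added to each level, none of the 5 genes differed 2-fold there between the libraries, as 0.411% of 16553 genes did upwards and 0.713% downwards. Oc90 was the exception in level, at 38.1 CPM in wild-type and 29.3 CPM in mutant mesenchyme. It was counted in every other class too, from 1.99 CPM in pericytes to 96.4 CPM in erythroid cells of the wild type and from 4.67 CPM in erythroid cells to 80.8 CPM in melanocytes of the mutant. These low levels differed between classes beyond their counting intervals, and their source was not tested. The 953 UMIs of wild-type mesenchyme lay in 222 of its barcodes, up to 68 in 1 barcode, and the 1214 UMIs of mutant mesenchyme in 852 barcodes.

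Epithelial barcodes fell into 23 sub-clusters, which were made without the 5 genes and the other listed genes, among them the 8 roof markers named below. Markers of other types were kept out only where they were also on a list. Sub-clusters 6 and 19 had as their best-scoring set the roof markers (Wnt4, Meis2, Slc26a7, Fgf9, Enpep, Rspo3, Gsc and Slc26a4), with 7 and 6 of the 8 markers at 10 CPM or more, and are called roof-like. None of the 8 stood among the 10 leading genes of either sub-cluster, and Enpep, Rspo3 and Gsc were higher in the marginal-like sub-cluster 12 than in wild-type sub-cluster 6, so the roof name rests on the score. The sub-clusters were divided unequally between the genotypes. Kölliker-like sub-cluster 1, medial-like sub-cluster 2, prosensory-like sub-cluster 7 and outer sulcus-like sub-cluster 11 had no mutant barcode. Sub-cluster 6 had 91 wild-type and 8 mutant barcodes and was led by Ecel1, Oc90, Pcdh20, Kctd8 and Lrp2. Sub-cluster 19 had 25 wild-type and 94 mutant barcodes and was led by Spon1, Oc90, Otx2, Ttr and Vmo1. With the listed genes kept in clustering, the sub-cluster led by these same genes held 11 wild-type and 77 mutant barcodes. It had a marker of another type among its leading genes and received no name, whereas the sub-cluster led by Ecel1 and Oc90 stayed roof-like. Sub-cluster 12 (60 wild-type barcodes and 1 mutant barcode) carried marginal cell markers such as Esrrb and Kcne1 but also the pigment cell genes Dct and Pmel, and all of its wild-type barcodes were mixed.

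Among wild-type sub-clusters of at least 20 barcodes, Otx1 and Otx2 were highest in the roof-like ones. Otx2 reached 78.4 CPM (51.2 to 115) in sub-cluster 19 and 45.6 CPM (32.1 to 62.8) in sub-cluster 6, and these intervals overlap. Otx1 reached 51.2 CPM (29.9 to 82.1) and 16 CPM (8.52 to 27.4), which do not overlap, but 9 of the 17 Otx1 UMIs of sub-cluster 19 came from 1 barcode. Without the richest barcode of each sub-cluster Otx1 was at 25.3 CPM (10.9 to 49.9) and 12.8 CPM (6.14 to 23.5), and these intervals overlap. Neither gene had a UMI in wild-type hair cell-like sub-cluster 10 (123 barcodes), outer sulcus-like sub-cluster 11 (151 barcodes), prosensory-like sub-cluster 7 (93 barcodes) or Kölliker-like sub-cluster 1 (190 barcodes). Those zeros leave room for at most 2.21, 1.96, 2.52 and 1.37 CPM. Kölliker-like sub-cluster 5 (33 barcodes) and marginal-like sub-cluster 12 each had 1 UMI of Otx1 and 2 UMIs of Otx2.

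Oc90 extended further than the OTX genes. Its wild-type level was 15264 CPM (14997 to 15535) in sub-cluster 6, 7076 CPM (6872 to 7284) in marginal-like sub-cluster 12 and 6725 CPM (6449 to 7010) in sub-cluster 19. The last 2 have overlapping intervals and the first stands above both. Next came the unnamed sub-clusters 3 and 0, at 1526 and 1179 CPM, whose barcodes were 100% and 99.3% mixed. All other wild-type sub-clusters of at least 20 barcodes reached at most 333 CPM, and prosensory-like sub-cluster 7 was lowest at 8.39 CPM. Vmo1, in contrast, was found at 45.2 CPM (25.3 to 74.6) in wild-type sub-cluster 19 and 12.3 CPM (5.90 to 22.6) in sub-cluster 6, had no UMI in sub-cluster 12, and stayed at or below 2.09 CPM in the remaining wild-type sub-clusters of at least 20 barcodes.

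Lrp2 extended into sub-clusters of the floor in wild-type epithelium. It was highest in roof-like sub-cluster 6 at 411 CPM (368 to 458) and next in marginal-like sub-cluster 12 at 226 CPM (191 to 266). Kölliker-like sub-cluster 1 followed at 62.7 CPM (52.7 to 74.1), above medial-like sub-cluster 2 at 39.5 CPM (28.8 to 52.9), whose interval just meets it. Roof-like sub-cluster 19 (33.2 CPM) and medial-like sub-cluster 4 (31.9 CPM) did not differ from sub-cluster 2 beyond their intervals. Hair cell-like, outer sulcus-like and prosensory-like cells had 11, 9.13 and 3.36 CPM. Lrp2 was thus counted in floor as well as roof epithelium, and in the wild type the level in sub-cluster 6 was more than 10 times that in sub-cluster 19.

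**Figure D1:**
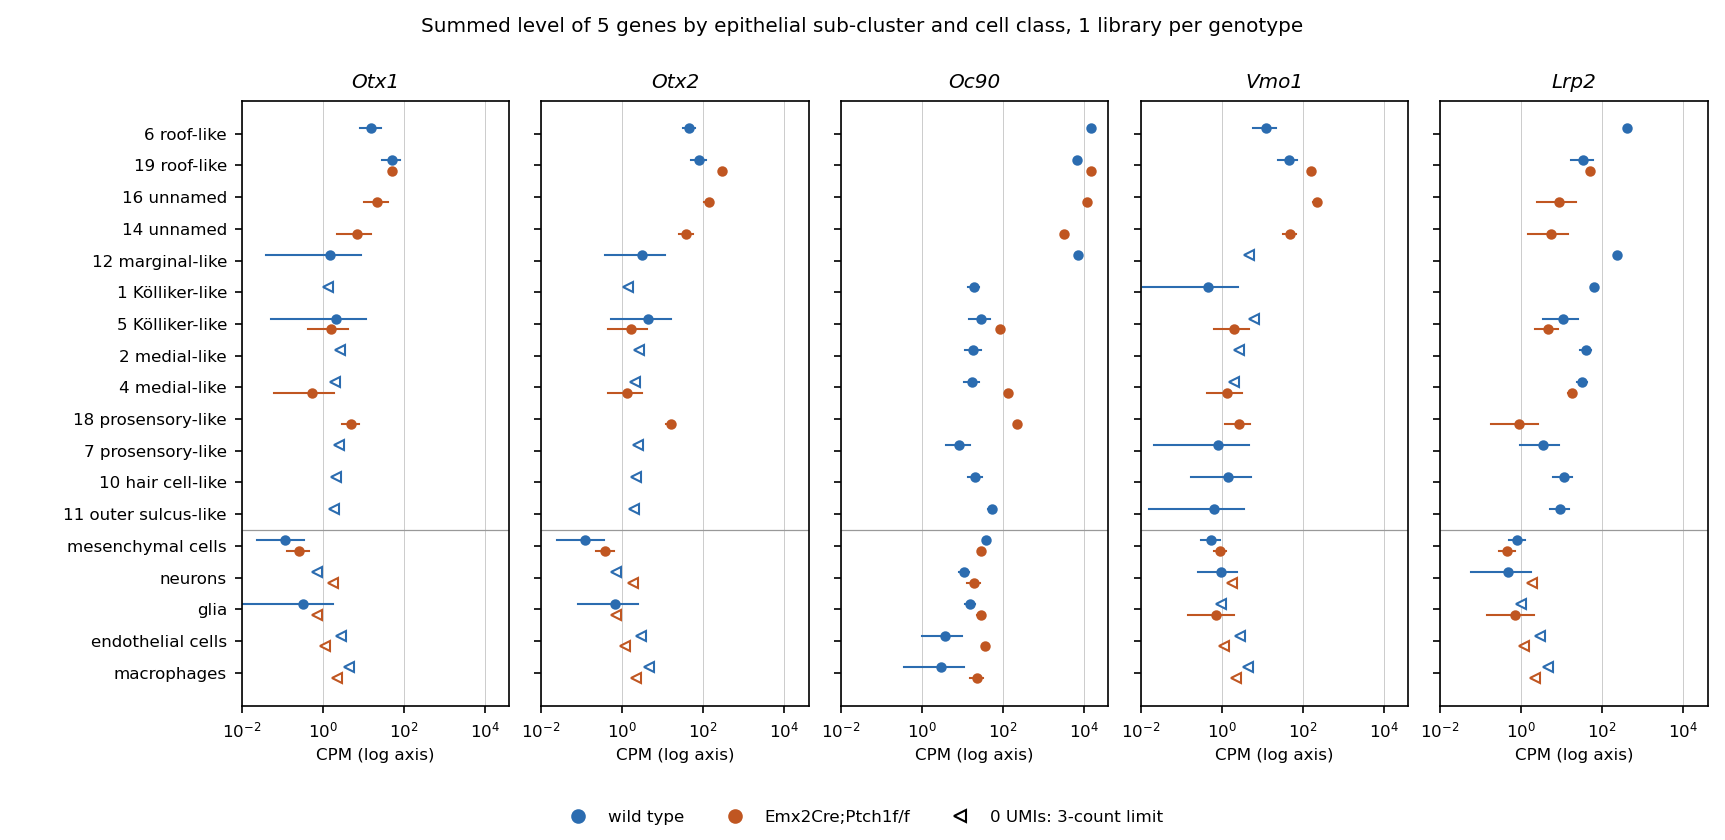
Level of each gene in CPM (log axis) in the named epithelial sub-clusters with 14 and 16 (above the line) and in other classes (below), for groups of at least 20 barcodes, wild type in blue and Emx2Cre;Ptch1f/f in orange, with 95% Poisson intervals and open triangles at the 3-count limit where no UMI was counted. Otx1, Otx2 and Vmo1 are highest in sub-clusters 6, 19, 16 and 14, Oc90 also in 12, and Lrp2 in 6 and 12.

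Roof-like barcodes held most epithelial UMIs of each gene in each library, with the exception of Lrp2 in the wild type. They made up 7.86% of wild-type epithelial barcodes and 6.61% of all epithelial UMIs, and held 69.2% of epithelial Otx2 UMIs, 65.2% of Otx1, 61.1% of Oc90, 59.5% of Vmo1 and 40.8% of Lrp2. In the mutant they made up 5.03% of epithelial barcodes, with a median of 18243.5 UMIs, and 17.7% of all epithelial UMIs, and held 86.1% of Otx2, 77.6% of Otx1, 84.1% of Oc90, 77.3% of Vmo1 and 70.3% of Lrp2. Outside them, 1 wild-type barcode in the otherwise prosensory-like sub-cluster 18 held 13 of the 28 remaining Otx2 UMIs and 9 of the 16 remaining Otx1 UMIs. With only 7 wild-type barcodes, sub-cluster 18 thus stood at 93.1 CPM of Otx2 and 64.4 CPM of Otx1.

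Over the whole epithelium, 4 of the 5 genes stood 2-fold or more above the wild type in the mutant, and the other one stood as far below it, on the scale of CPM with 1 CPM added. Of 16294 genes with at least 10 UMIs, 2.27% lay 2-fold or more above and 6.42% as far below by the same measure. The members were chosen with earlier results of these libraries known, so their count is set beside that background as a description.

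Otx2 had 91 UMIs (5.26 CPM) in wild-type and 1140 UMIs (56.4 CPM) in mutant epithelium, 10.7-fold higher (8.66 to 13.4). Otx1 had 46 UMIs (2.66 CPM) and 219 UMIs (10.8 CPM), 4.08-fold higher (2.96 to 5.73). For the secreted product Vmo1 the counts were 42 UMIs (2.43 CPM) and 700 UMIs (34.6 CPM), 14.3-fold higher (10.4 to 20.0). Vmo1 and Otx2 thus had the largest ratios of the members, and their intervals overlap. Oc90 had 23940 UMIs (1383 CPM) and 62552 UMIs (3094 CPM), 2.24-fold higher (2.20 to 2.27). Lrp2 was the member that was lower, with 846 UMIs (48.9 CPM) and 428 UMIs (21.2 CPM), so that the wild type exceeded the mutant 2.31-fold (2.05 to 2.60).

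Without mixed barcodes the directions were the same. Otx2 was then 5.12-fold higher in the mutant (3.93 to 6.79), Vmo1 9.57-fold (6.36 to 15.1) and Oc90 2.65-fold (2.58 to 2.71). Otx1 was 1.89-fold higher (1.30 to 2.82), which is below the 2-fold mark. For Lrp2 the wild type exceeded the mutant 4.04-fold (3.43 to 4.77). In this comparison 3 members passed the 2-fold mark upwards and 1 downwards, where 2.96% and 3.03% of 15350 genes did.

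**Figure D2:**
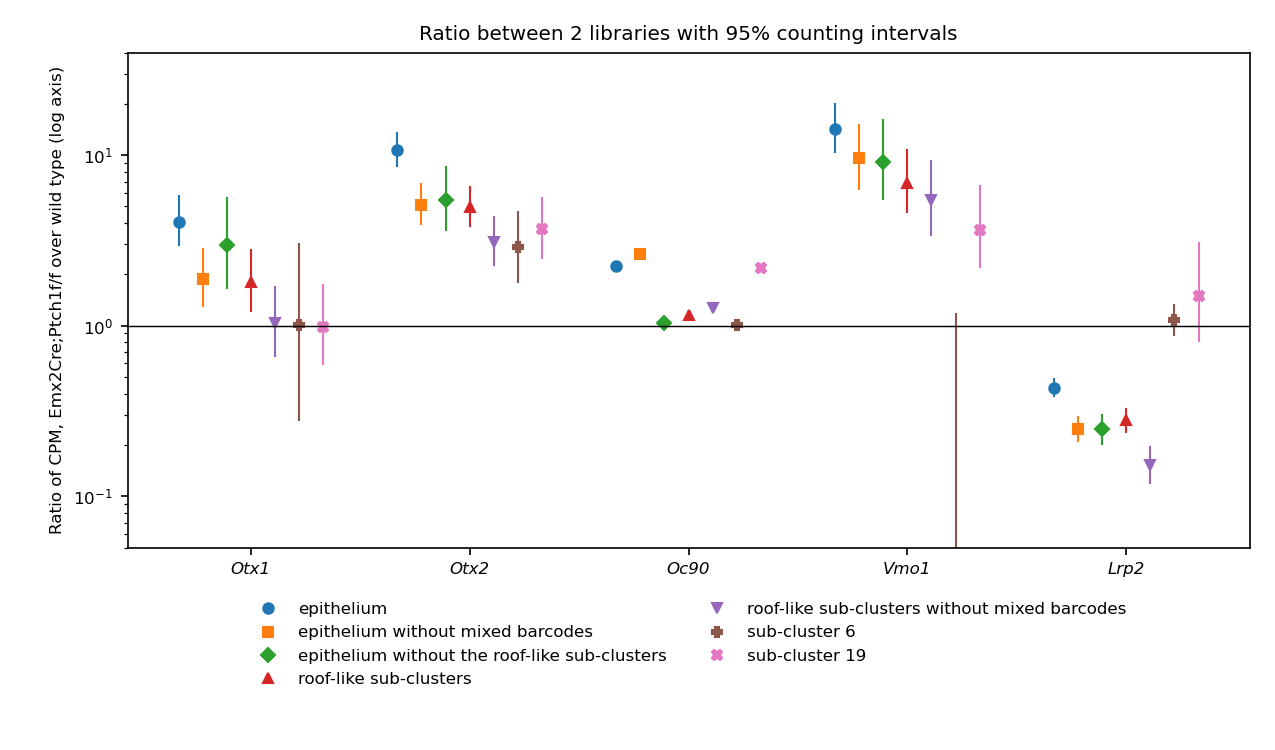
Ratio of CPM, Emx2Cre;Ptch1f/f over wild type (log axis), for each gene in the epithelium and in parts of it, with 95% counting intervals, no added CPM and a line with no point for Vmo1 in sub-cluster 6, where the 8 mutant barcodes held no UMI. Otx2 lies above 1 in each of the 7 comparisons, whereas Lrp2 lies below 1 in the pooled comparisons and its intervals include 1 within sub-clusters 6 and 19.

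At equal depth, Otx1, Otx2 and Vmo1 were found in a larger share of mutant barcodes and Lrp2 in a larger share of wild-type barcodes. Each barcode was thinned to 2000 UMIs, which left 1476 wild-type and 1364 mutant epithelial barcodes and set aside 662 shallower mutant ones. Otx2 was then found in 1.29% of wild-type barcodes (0.777 to 2.0, exact Clopper-Pearson interval) and 4.91% of mutant barcodes (3.83 to 6.20). Vmo1 was found in 0.271% (0.0739 to 0.692) and 4.11% (3.12 to 5.30), and Otx1 in 0.271% and 1.25% (0.728 to 1.99). These shares are from a single draw, and the shares expected over draws were 0.947% and 5.06% for Otx2, 0.490% and 4.17% for Vmo1, and 0.412% and 1.19% for Otx1. The 3 genes were thus in more of the mutant barcodes, although in few barcodes of either library. Lrp2 was found in 7.52% (6.23 to 8.99) of wild-type and 1.98% (1.31 to 2.87) of mutant barcodes. Before thinning these shares were 3.05% and 7.95% for Otx2, 1.96% and 6.86% for Vmo1, 1.69% and 4.24% for Otx1, and 24.9% and 7.01% for Lrp2. In mesenchyme, whose barcodes had median depths of 7116.5 and 8508 UMIs, none of the 4 genes exceeded 0.169% of thinned barcodes.

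Oc90 behaved differently at equal depth. It was found in 25.8% (23.6 to 28.1) of wild-type and 23.2% (21.0 to 25.6) of mutant epithelial barcodes, and in 3.20% and 5.24% of mesenchymal ones. The share goes against the CPM, so no order is read from it. Before thinning, 37.6% and 36.3% of epithelial barcodes held an Oc90 UMI. Without mixed barcodes Oc90 was in 10.5% (8.15 to 13.2) of wild-type and 21.1% (18.8 to 23.4) of mutant epithelial barcodes.

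The comparison was then restricted to the roof-like sub-clusters, 116 wild-type and 102 mutant barcodes, of which 65.5% and 29.4% were mixed. Their median depths were 6352 and 18243.5 UMIs, and sub-cluster 6 supplied most of the wild-type and sub-cluster 19 most of the mutant barcodes. Otx2 stood at 55.1 CPM in wild-type and 274 CPM in mutant barcodes, 4.97-fold higher (3.85 to 6.52). Vmo1 was at 21.9 and 151 CPM, 6.90-fold higher (4.62 to 10.8). These 2 genes passed the 2-fold mark upwards and Lrp2 downwards, as did 5.45% and 7.51% of 12581 genes. Otx1 was at 26.2 and 47.4 CPM, 1.81-fold higher (1.22 to 2.76), and 2.44-fold higher (1.54 to 4.06), past the mark, without the barcode richest in Otx1 in each library. Oc90 was at 12788 and 14670 CPM, 1.15-fold higher (1.13 to 1.17). Lrp2 was at 302 and 83.9 CPM, 3.59-fold higher in the wild type (3.07 to 4.21). The Oc90 levels of the roof-like barcodes were thus closer together than those of the whole epithelium.

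Without mixed barcodes, roof-like Otx2 was 3.10-fold higher in the mutant (2.27 to 4.31) and Vmo1 5.45-fold (3.40 to 9.29). Otx1 was then at 41.4 and 42.9 CPM, a ratio of 1.04 (0.664 to 1.68). That ratio rests in part on the wild-type barcode with 9 Otx1 UMIs, and without the richest barcode of each library it was 1.46 (0.848 to 2.66). Oc90 was 1.27-fold higher in the mutant (1.24 to 1.30), and Lrp2 6.57-fold higher in the wild type (5.15 to 8.41). Here 2 members passed the 2-fold mark upwards and 1 downwards, as did 8.13% and 7.46% of 11611 genes.

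Within each roof-like sub-cluster the pattern of the members split. In sub-cluster 19, Otx2 was at 78.4 CPM in 25 wild-type barcodes and 287 CPM in 94 mutant barcodes, 3.67-fold higher (2.49 to 5.64). Vmo1 was at 45.2 and 165 CPM, 3.65-fold higher (2.19 to 6.57). Oc90 was at 6725 and 14596 CPM, 2.17-fold higher (2.08 to 2.27). A larger share of the wild-type barcodes had little Oc90: 10 of 25, with 47.3% of the UMIs of the group, lay below 5 Oc90 UMIs per 10000, a limit chosen after the values were seen, against 13 of 94 mutant barcodes with 7.81%. None of these 10 wild-type barcodes held a UMI of Otx1, Otx2 or Vmo1, and of the 13 mutant ones 1 held Otx2, with 3 UMIs. The ratios of sub-cluster 19 include all these barcodes and were not computed without them, so they do not compare like barcodes only. The 3 higher members passed the 2-fold mark upwards and none passed it downwards, in a comparison in which 13.7% and 7.77% of 11918 genes did so. Otx1 did not, at 51.2 and 50.4 CPM, a ratio of 0.983 (0.596 to 1.73), which became 1.91 (0.946 to 4.51) without the richest barcode of each library. Lrp2 was at 33.2 and 49.8 CPM, a ratio of 1.50 (0.817 to 3.07), or 2.47 (1.11 to 6.84) without the richest barcodes, which held 5 of the 11 wild-type and 15 of the 163 mutant UMIs. The lower Lrp2 of the pooled roof-like mutant was thus not seen within sub-cluster 19.

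Mutant barcodes of sub-cluster 19 carried other RNA too, and 26.6% of them were mixed against 4% in the wild type. Their summed melanocyte markers, all 5 of them counted, came to 194 CPM and were led by Dct, against 6.03 CPM in the wild type, where 3 of 5 were at 0. The 4 pericyte markers, 2 of them at 0 in the wild type, came to 194 CPM in the mutant and 60.3 CPM in the wild type. Their part in the result was not tested beyond leaving mixed barcodes out. Without mixed barcodes Otx2 was 2.92-fold higher in the mutant (1.97 to 4.51), Vmo1 3.66-fold (2.19 to 6.61) and Oc90 2.18-fold (2.09 to 2.28), and the Lrp2 ratio was 1.07 (0.568 to 2.23). Again 3 members passed the 2-fold mark upwards and none downwards, beside 12.2% and 8.09% of 11282 genes.

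In sub-cluster 6 the mutant contributed only 8 barcodes, which held 41 Otx2 UMIs in 6 of them and 5 Otx1 UMIs. Otx2 stood at 45.6 CPM in wild-type and 132 CPM in mutant barcodes, a ratio of 2.89 (1.81 to 4.64). Otx1 (16 and 16.1 CPM), Oc90 (15264 and 15452 CPM) and Lrp2 (411 and 444 CPM) lay close together. The Lrp2 ratio was 1.08 (0.878 to 1.32), but 0.916 (0.711 to 1.17) without the richest barcode of each library, and the Oc90 ratio was then 0.933 (0.898 to 0.969). Vmo1 had 10 UMIs in the wild type and none in the mutant, where a count of 0 allows up to 9.64 CPM. With 1 CPM added, Otx2 passed the 2-fold mark upwards and Vmo1 downwards, beside 6.14% and 13.7% of 9684 genes, although the interval of the Vmo1 ratio reaches 1.16. Mixed barcodes made up 82.4% of the wild-type and 62.5% of the mutant barcodes here. The 8 mesenchyme markers summed to 770 and 681 CPM, and the 5 melanocyte markers to 6.16 and 180 CPM, with 2 of them at 0 in each library. Otx2 was therefore the member that was more than 2-fold higher in the mutant in both roof-like sub-clusters, whereas the interval of the Lrp2 ratio included 1 in each of them with all barcodes kept, and the ratio was below 1 once they were pooled.

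Single barcodes were compared as UMIs per 10000 UMIs of the barcode. For Oc90 the lowest, median and highest values were 22, 137 and 299 in wild-type sub-cluster 6. They were 13.7, 72.0 and 102 in wild-type sub-cluster 12, a narrower range than in sub-cluster 6. In wild-type sub-cluster 19 they were 0, 26.2 and 467, and in mutant sub-cluster 19 they were 0, 131 and 313. Sub-cluster 19 thus held barcodes with and without Oc90 in both libraries, in unequal parts, since the lower quartile was 0.769 for wild-type and 65.6 for mutant barcodes. For Lrp2 the median was 2.74 in wild-type sub-cluster 6 and 2.13 in sub-cluster 12, but 0 in wild-type and 0.0636 in mutant sub-cluster 19. For Otx2 the median was 0 in wild-type sub-clusters 6, 12 and 19 and 2.14 in mutant sub-cluster 19, where the highest barcode reached 18.8. The Otx2 median was 1.46 in the 8 mutant barcodes of sub-cluster 6, whose median depth was 32056.5 UMIs. The ranges of all these groups overlap, and the median depths differed, at 5980, 10099 and 8092 UMIs in wild-type sub-clusters 6, 12 and 19 and 17566.5 in mutant sub-cluster 19.

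**Figure D3:**
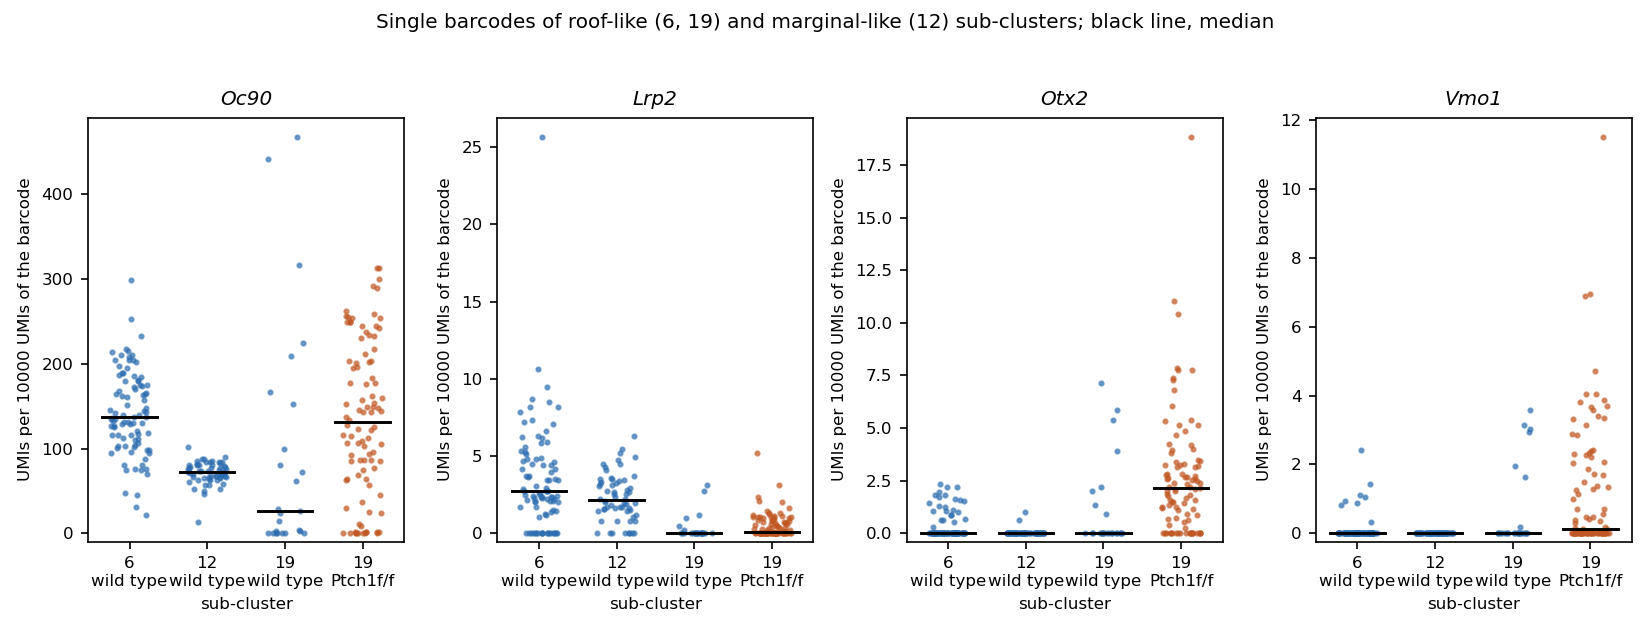
UMIs of 4 members per 10000 UMIs of each barcode, for wild-type barcodes (blue) of sub-clusters 6, 12 and 19 and Emx2Cre;Ptch1f/f barcodes (orange) of sub-cluster 19, with 1 point a barcode and a black line at the median. Oc90 is spread from 0 upwards in sub-cluster 19, Lrp2 is highest in sub-cluster 6, and of the groups shown only mutant sub-cluster 19 has an Otx2 median above 0.

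The members were also set against Oc90 within the same barcodes. In wild-type sub-cluster 6 there were 2.69 Lrp2 UMIs per 100 Oc90 UMIs (2.41 to 3.0) and in sub-cluster 12 there were 3.20 (2.70 to 3.77). In sub-cluster 19 the value was 0.493 (0.246 to 0.884) in the wild type and 0.341 (0.291 to 0.398) in the mutant. Otx2 ran the other way, with 0.298 per 100 Oc90 UMIs (0.210 to 0.412) in wild-type sub-cluster 6, 1.17 (0.760 to 1.71) in wild-type sub-cluster 19 and 1.97 (1.84 to 2.10) in mutant sub-cluster 19. The 2 roof-like sub-clusters therefore differed in the mix of members in the wild-type library already. Vmo1 per 100 Oc90 UMIs was 0.672 (0.376 to 1.11) in wild-type and 1.13 (1.04 to 1.23) in mutant sub-cluster 19, and these intervals overlap. Otx1 was lower in the mutant by this measure, at 0.762 (0.443 to 1.22) and 0.345 (0.294 to 0.402). Of the 17 wild-type Otx1 UMIs there, 9 came from 1 barcode.

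At 2000 UMIs per barcode, Vmo1 was found in 8 of the 31 mutant roof-like barcodes with Otx2 and in 4 of the 71 without it. In the wild type the 12 barcodes with Otx2 included none with Vmo1, and 4 of the 104 others held it. A separate draw of sub-cluster 19 alone found Vmo1 in 7 of the 24 mutant barcodes with Otx2 and in 11 of the 70 without it. In its wild-type barcodes Vmo1 was in 1 of the 3 with Otx2 and in 1 of the 22 without it. With a single thinned draw each and so few barcodes these counts are a description only.

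Part of the mutant signal lay in shallow barcodes that received no name. Sub-cluster 16 had 213 mutant and 3 wild-type barcodes and a median of 1801 UMIs, and was led by Vmo1, Ttr, Oc90, Dapl1 and Otx2. Its mutant levels were 138 CPM for Otx2 (106 to 176), 225 CPM for Vmo1 (184 to 273), 11732 CPM for Oc90 and 8.74 CPM for Lrp2 (2.38 to 22.4). Sub-cluster 14, with 305 mutant barcodes, had 37.3 CPM of Otx2, 48.3 CPM of Vmo1 and 3147 CPM of Oc90. The roof markers were the best-scoring set of both sub-clusters. Sub-cluster 16 received no name because it was shallow with none of them among its leading genes, and sub-cluster 14 because its score was too low. Both held Otx2, Vmo1 and Oc90, as sub-cluster 19 did, but their Lrp2 levels, 5.52 CPM (1.51 to 14.1) in sub-cluster 14, were below the 49.8 CPM (42.4 to 58.0) of mutant sub-cluster 19. The wild-type library had no barcode below 3352 UMIs, so barcodes of that depth were absent from it.

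Outside the roof-like sub-clusters Oc90 was nearly equal, at 576 CPM in wild-type and 597 CPM in mutant epithelium, a ratio of 1.04 (1.01 to 1.07). Of the 9313 wild-type UMIs there, 4562 lay in sub-cluster 12, 2220 in sub-cluster 3 and 1693 in sub-cluster 0. Of the 9935 mutant UMIs, 5368 lay in sub-cluster 16 and 2279 in sub-cluster 14. Otx2 was 5.49-fold higher in the mutant in these barcodes (3.65 to 8.52) and Vmo1 9.09-fold (5.50 to 16), and Lrp2 was 4.06-fold higher in the wild type (3.33 to 4.97). Of the mutant UMIs there, 63 of Otx2 and 103 of Vmo1 lay in sub-cluster 16, and 27 and 35 in sub-cluster 14. Another 53 of Otx2 lay in sub-cluster 18. The wild type had only 3 barcodes in sub-cluster 16 and 2 in sub-cluster 14, so these ratios do not show a difference outside roof-like cells. In this comparison 2 members passed the 2-fold mark upwards and 1 downwards, as did 2.35% and 7.09% of 16030 genes. The mark uses 1 CPM added and the ratios above do not, and for that reason Otx1 fell short of it at 0.99 and 2.95 CPM. Of the wild-type Lrp2 UMIs in these barcodes, 146 lay in sub-cluster 12, 137 in sub-cluster 1, 46 in sub-cluster 4 and 45 in sub-cluster 2. Sub-clusters 1 and 2 had no mutant barcode, sub-cluster 12 had 1 and sub-cluster 4 had 225.

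The prosensory-like sub-cluster 18, with 190 mutant barcodes, had 53 Otx2 UMIs (15.8 CPM) and 17 Otx1 UMIs. Only 9 of its barcodes held all 53 Otx2 UMIs, 1 of them 20, and these 9 held 54.5% of its Oc90 UMIs. The OTX genes were thus in few barcodes of that sub-cluster. The medial-like sub-cluster 4 was present in both libraries, with 113 and 225 barcodes. Its Lrp2 level was 31.9 CPM in wild-type barcodes (23.4 to 42.5) and 17.9 CPM in mutant ones (13.9 to 22.8), and its Oc90 level 17.3 and 134 CPM. Of the 502 mutant Oc90 UMIs there, 243 came from 1 barcode.

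Over the epithelium the 3 Hedgehog readout genes were all higher in the mutant library and passed the 2-fold mark, as did 2.27% of 16294 genes. Without mixed barcodes all 3 passed it too, beside 2.96% of 15350 genes. In mesenchyme none passed it upwards and 1 downwards, beside 0.411% and 0.713% of 16553 genes. Ptch1, itself a target of the pathway, was at 29.1 CPM in wild-type and 185 CPM in mutant epithelium, Gli1, a transcriptional effector and target, at 2.14 and 19.9 CPM, and Hhip, a secreted antagonist and target, at 2.60 and 14.8 CPM. The counted 3′ end of Ptch1 need not lie in the deleted part, so its level does not check the deletion. In sub-cluster 19 Ptch1 was at 36.2 and 207 CPM, and Gli1 at 6.03 and 26.3 CPM. Sub-cluster 6 had 35.7 CPM of Ptch1 in its wild-type and 235 CPM in its 8 mutant barcodes, 0 and 10 UMIs of Gli1, and 2 and 0 UMIs of Hhip. Emx2, from which Cre is made, was at 60.3 CPM (36.8 to 93.1) in wild-type and 35.4 CPM (29.3 to 42.5) in mutant sub-cluster 19, at 3.69 CPM in wild-type sub-cluster 6 and had no UMI in the mutant barcodes of sub-cluster 6. Sub-cluster 19, which had more Emx2, also held most mutant roof-like barcodes, and a link between these 2 facts was not tested.

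The other roof genes did not follow the members as a block. All 8 of the roof list had at least 10 UMIs in the epithelium. Of these, 2 passed the 2-fold mark upwards and 2 downwards, and their median log2 ratio was 0.07 against 0.03 over all 16294 genes, of which, as above, 2.27% and 6.42% passed it. Without mixed barcodes 1 passed upwards and 2 downwards, beside 2.96% and 3.03% of 15350 genes. In the roof-like sub-clusters these counts were 0 and 3, beside 5.45% and 7.51% of 12581 genes. Wnt4, a secreted WNT ligand, was at 9.30 and 32.8 CPM, and Fgf9, a growth factor made by the cochlear roof, at 20.3 and 53.2 CPM. The lower ones were Enpep, the enzyme aminopeptidase A, at 26.9 and 4.55 CPM, and Rspo3, a secreted enhancer of WNT signalling, at 26.8 and 5.05 CPM. In the wild type, Wnt4 was at 124 CPM in sub-cluster 19 and 50.5 CPM in sub-cluster 6, and Fgf9 at 127 and 66.5 CPM. In the same order Enpep was at 33.2 and 166 CPM and Rspo3 at 3.01 and 46.8 CPM. Both were highest in marginal-like sub-cluster 12, Enpep at 321 CPM and Rspo3 at 244 CPM. Not all markers paired in this way: Gsc was at 3.01 and 87.4 CPM, but at 10.5 CPM in both libraries over the epithelium. The same 8 markers gave the roof-like sub-clusters their name, so they are no independent check of it.

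**Figure D4:**
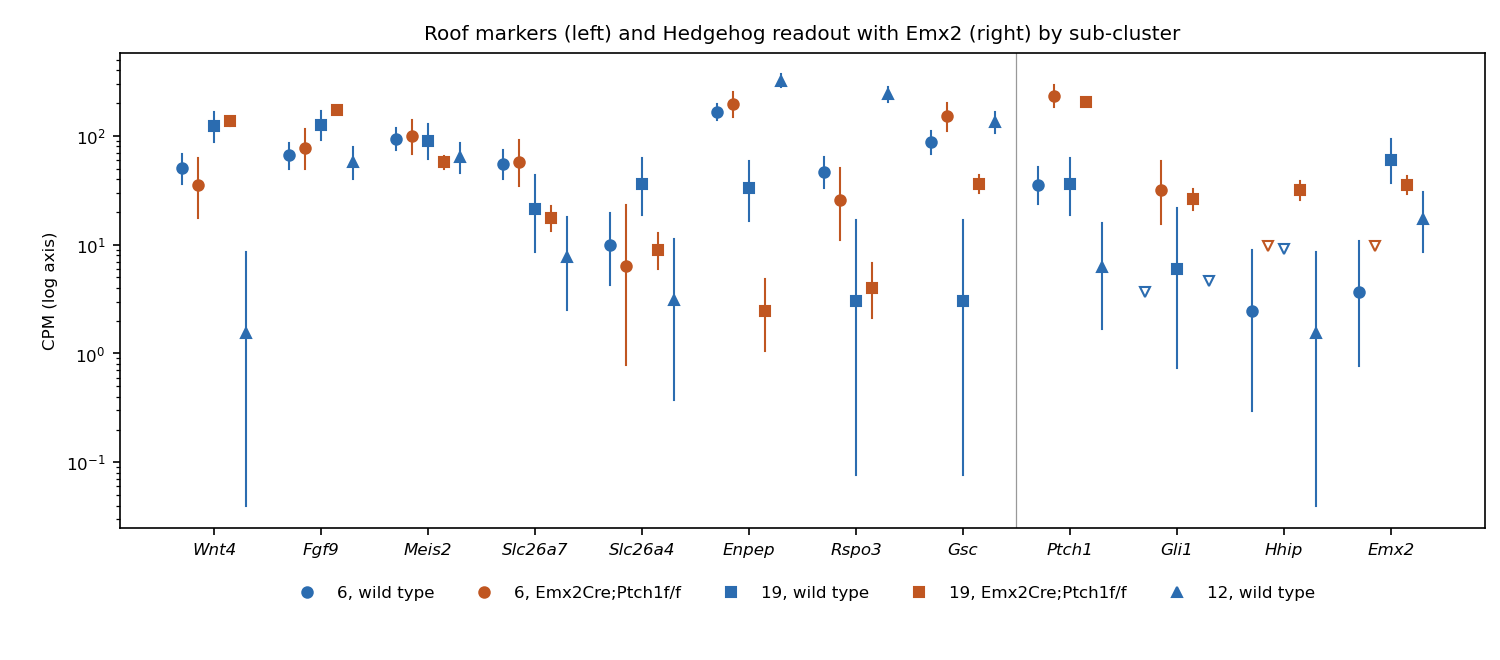
Level in CPM (log axis) of the 8 roof markers (left of the line) and of Ptch1, Gli1, Hhip and Emx2 (right) in roof-like sub-clusters 6 (circles) and 19 (squares) and marginal-like sub-cluster 12 (triangles), wild type in blue and Emx2Cre;Ptch1f/f in orange, with 95% Poisson intervals and open triangles at the 3-count limit for 0 UMIs. Enpep and Gsc are high in sub-clusters 6 and 12, Wnt4 and Fgf9 in sub-cluster 19, and Ptch1 is higher in the mutant barcodes of both roof-like sub-clusters.

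Relatives of the OTX factors were mostly not counted. Of 8 genes of the OTX family and paired-type homeobox relatives, 3 had at least 10 UMIs in the epithelium, namely Otx1, Otx2 and Gsc. Gsc, the homeobox gene goosecoid, was at 10.5 CPM in both libraries over the epithelium. In roof-like sub-cluster 6 it reached 87.4 CPM in wild-type and 151 CPM in mutant barcodes. Among otic non-sensory transcription factors 14 of 15 were counted, 1 passed the mark upwards and 2 downwards, with a median log2 ratio of 0.26, beside the same 2.27% and 6.42% of all genes. Without mixed barcodes 2 passed each way, beside 2.96% upwards and 3.03% downwards of 15350 genes, and the median was 0.07. Pax2, a paired-box factor of the otic epithelium, was at 9.36 and 28.6 CPM, and Eya1, a transcriptional coactivator, at 151 and 300.4 CPM, just short of the mark. Hmx2 was at 4.16 and 0.445 CPM and Hmx3, its neighbour in the same homeobox family, at 4.68 and 1.58 CPM.

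Of 13 otoconial and acellular matrix products, the group to which Oc90 belongs, 12 were counted in the epithelium. The 2-fold mark was passed upwards by 2 of them and downwards by 3, with a median log2 ratio of -0.02, beside 2.27% and 6.42% of all genes. Without mixed barcodes 11 were counted and the median was -0.27. Of these, 1 passed upwards and 3 downwards, beside 2.96% and 3.03% of 15350 genes. Otolin-1, the collagen-like otoconial protein encoded by Otol1, was at 48.3 and 116 CPM, and Tectb, which encodes β-tectorin of the tectorial membrane, at 319 and 647 CPM. Spp1 (osteopontin) was at 53.1 and 1.19 CPM, and Sparcl1, a matricellular protein, at 219 and 82.8 CPM. Spp1 was among the leading genes of the wild-type sub-cluster 0, whose barcodes were 99.3% mixed.

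Of 17 partners and endocytic adaptors of megalin found in the files, 16 were counted. In the mutant epithelium 1 passed the mark upwards and 2 downwards, with a median log2 ratio of -0.01, beside 2.27% and 6.42% of all genes. Without mixed barcodes 2 passed upwards and 1 downwards, beside 2.96% and 3.03% of 15350 genes. Dab2, the adaptor that links megalin to clathrin, was at 25.4 and 5.44 CPM, and Lrpap1, which encodes the chaperone RAP that escorts LDL receptor family proteins, at 162 and 79.5 CPM. Lrp8, another receptor of that family, was at 5.43 and 18.4 CPM. Gipc1, an adaptor that binds the megalin tail, was at 30.8 and 58.0 CPM, below the mark.

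The genes most like each member were ranked by Pearson's r of log2(CPM + 1) over 24 profiles, each 1 epithelial sub-cluster of at least 50 barcodes in 1 library. The profiles share 2 libraries and differ in depth, so r is a description and carries no p. Otx1 and Otx2 were like each other (r = 0.91), and Prss33, a serine protease gene, came first for both of them, with r = 0.95 for Otx1 and 0.93 for Otx2. Lypd2 (0.92) came next for Otx1 and Dapl1 (0.92) for Otx2. Prss33 stood at 3.41 CPM in wild-type and 22.5 CPM in mutant epithelium. Oc90 was most like Gsc (0.90), Dapl1 (0.88) and Meis2 (0.87). The genes most like Vmo1 included Cldn22, a claudin of the tight junction family (0.87), and the homeobox gene Barx2 (0.83). Barx2 had 14 UMIs in wild-type and 504 in mutant epithelium. Lrp2 stood apart from the other members, with r between 0.11 and 0.38, and was most like Bhlhe41 (0.87), Meg3 (0.82) and Gclc (0.80).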

How the data were processed

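RNA of single cells was captured in 2 libraries by 10x Genomics 3′ chemistry. The sample descriptions name different kit versions, whereas per the labels' protocols both were made alike. The deposited files hold raw UMI counts, which the authors had not normalized. Cell Ranger 6.0.0 and the mm10 genome are named per the submitters' processing notes, while per the file headers the mutant matrix was written by version 5.0.1 and the wild-type one by 6.0.0. The rule that separated cells from empty droplets, and any strand setting, are not stated in these sources.

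A barcode passed with 1000 or more UMIs, 500 or more genes and no more than 10% mitochondrial UMIs, which left 6440 and 9373. Scrublet's automatic threshold called 0 and 0 doublets and so had not worked, and the top-scored 0.8% per 1000 barcodes were removed instead, 332 and 703. Clustering used scanpy 1.11.5 (2000 variable genes, 30 components, 15 neighbours, Leiden resolution 1) with no correction between libraries. Each cluster took the marker set with the highest score, the average over its markers of the cluster's CPM divided by that marker's highest CPM in any cluster. The score had to reach 0.2, with 3 or more markers at 10 CPM. The naming took its final form once the data had been examined: the minimum score was added, a marker shared by several sets no longer counted as a set's own, and a marker of the set among the 10 leading genes was asked of shallow clusters only.

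UMIs were summed per library and group and given as CPM with exact Poisson intervals, and ratios with exact conditional binomial intervals (scipy 1.17.1). A gene with no UMI is given the limit of 3 counts. The 2-fold mark and the log2 ratios use 1 CPM added. The ratio and its interval were checked on simulated counts. The members, markers and lists were chosen with earlier results of these data known. Mixed barcodes, the ratios without the richest barcode, the roof-like comparisons and those within sub-clusters were defined after the data were seen. From each list, the 2 highest and 2 lowest ratios among genes with at least 30 UMIs in the epithelium are named, and for each member the 3 most similar genes among those with at least 100 UMIs, except a gene like Vmo1 that is not reported here. Of 32285 gene identifiers 32158 were found in GENCODE vM21. The windows searched for letters came from RefSeq.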

Additional observations from a re-analysis of the deposited data

How the results depend on the processing

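No paired analysis was possible because each genotype has 1 library and no value comes from a test. In the epithelium each member kept its direction under all 12 alternatives, as log2 ratios of the mutant over the wild type with 1 CPM added: Otx1 between 0.78 and 1.99, Otx2 between 2.21 and 3.40, Oc90 between 0.94 and 1.4, Vmo1 between 2.42 and 3.78, and Lrp2 between -1.93 and -1.04. Without mixed barcodes these ratios were 0.78, 2.21, 1.4, 2.88 and -1.93 in that order, against main values of 1.69, 3.20, 1.16, 3.38 and -1.17. With 5 CPM added Otx1 was at 1.05, Otx2 at 2.58 and Vmo1 at 2.42. With sub-clusters left out whose top genes were markers of other classes, a choice made after the data were seen, Otx2 was at 2.88, Oc90 at 0.94 and Lrp2 at -1.52. Oc90, whose counting interval is narrow, was at 1.11 with median-of-ratios scaling or with barcodes chosen by an Epcam or Cdh1 UMI, at 1.12 with the listed genes kept in clustering, Leiden resolution 2, a common UMI floor or without the barcode richest in Oc90 in each library, and at 1.21 without doublet removal. In the roof-like sub-clusters, all alternatives having been added after the data were seen, the log2 ratios without mixed barcodes were 0.0525 for Otx1, 1.62 for Otx2, 0.345 for Oc90 and -2.69 for Lrp2. In sub-cluster 19 alone they were -0.0244 for Otx1 and 0.57 for Lrp2, both reversed, 1.86 for Otx2, 1.12 for Oc90 and 1.85 for Vmo1. In the roof-like sub-clusters Oc90 was at 0.165 with sub-cluster 16 added and at 0.243 with median-of-ratios scaling. The difference in the share of barcodes with a UMI, mutant minus wild type in percentage points, was 3.62 for Otx2 at 2000 UMIs, 1.74 at 1000 and 6.21 at 4000. It was -5.54, -3.24 and -9.17 for Lrp2, and 2.15 for Otx1 at 4000 UMIs against 0.98 at 2000. For Oc90 it was -2.57 at 2000 UMIs, 2.46 at 1000, -5.89 at 4000 and 10.6 without mixed barcodes. Apart from the settings whose construction changes the barcodes or the added CPM, the cause was not tested. The wild-type values of Otx1, Otx2 and Vmo1 rest on fewer than 100 UMIs each, so single barcodes can move them.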
